A study of Homo sapiens with 6 samples.

Results

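Potassium channel genes were taken as the protein-coding rows of the deposited gene table whose symbol starts with KCN, which gave 96 of 26391 rows; another 18 KCN rows are noncoding and were left out. HEK293T cells, a line from human embryonic kidney transformed with adenovirus DNA and later given the large T antigen of SV40, were transfected in all libraries. One group received a pool of 4 siRNAs against LOC550643, a gene for a small protein that binds the decapping scaffold EDC4, and the other a non-silencing siRNA (control siRNA below). RNA was taken 48 hours after transfection of cells at 50% confluency, with 3 libraries per group. The question put to these libraries is which potassium channel mRNAs differ in level between the groups. Each group rests on a single siRNA reagent, so loss of LOC550643 and off-target activity of a reagent cannot be told apart, and in bulk RNA fewer cells that express a gene and less RNA per cell cannot be told apart.

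Potassium channels let potassium ions leave or enter the cell and so set its resting voltage and, in excitable cells, the shape and rate of action potentials. Voltage-gated pores (KCNA to KCND, KCNH and KCNQ) assemble as tetramers and open on depolarisation, while KCNF, KCNG, KCNS and KCNV encode silent subunits that only work when combined with KCNB pores. Other pores open with intracellular calcium or sodium (KCNMA, KCNN, KCNT), pass inward current more readily than outward current (KCNJ), or leak at rest (KCNK, tandem pore channels). KCNAB, KCNE, KCNIP and KCNMB proteins are auxiliary subunits that change the gating or trafficking of the pores. HEK293T cells are not excitable, and HEK293 lines are widely used to express cloned channels.

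The libraries held 35249993, 30739321 and 8604236 read pairs with LOC550643 siRNA and 32309964, 33421162 and 36082404 with control siRNA, as inferred from the deposited values, so LOC550643 siRNA replicate 3 has the largest counting error. Control siRNA replicate 2 differed most from the other control siRNA libraries. LOC550643, listed as LINC01420, stood at 5.74 ± 0.292 CPM with LOC550643 siRNA and 52.9 ± 2.88 CPM with control siRNA (SD, n = 3 each; log2 fold change -3.20, limma adjusted p = 6.98e-09). Of 12 genes that mark HEK293 or embryonic kidney cells, 9 were tested, with vimentin (VIM) at 870.0 CPM with LOC550643 siRNA and 812.7 CPM with control siRNA. Of the 9, 1 (KRT18) was higher and 1 (CDH2) lower, whereas PAX8 and CDH6 stayed below 0.4 CPM in every library. Among 13 neuronal markers 2 were higher and 4 lower, and their summed level was 238.1 to 274.0 CPM with LOC550643 siRNA and 255.8 to 266.4 CPM with control siRNA, most of it NEFL and NEFM. SYP, a synaptic vesicle protein, averaged 3.67 CPM with LOC550643 siRNA and 14.4 CPM with control siRNA (log2 fold change -1.96, limma adjusted p = 9.33e-07). SLC17A7, TUBB3 and GAD1 were also lower (log2 fold change -0.79, -0.61 and -0.41), MAP2 and NEFM were higher (0.56 and 0.42), and RBFOX3 and NEFL did not pass. SYT1 and SNAP25 did not pass either. SYT1 averaged 27.51 CPM with LOC550643 siRNA and 24.39 CPM with control siRNA, RBFOX3 11.52 and 11.04 CPM, and SNAP25 2.912 and 3.384 CPM. ELAVL3, ELAVL4 and STMN2 were not tested, and ELAVL4 and STMN2 stayed below 0.2 CPM. Of 7 fibroblast markers 4 were tested, 0 were higher and 2 lower (35.7% of all rows tested were called in either direction). PDGFRA averaged 1.75 CPM with LOC550643 siRNA and 3.77 CPM with control siRNA (log2 fold change -1.13, limma adjusted p = 0.00215), and COL3A1 5.92 CPM with LOC550643 siRNA and 8.56 CPM with control siRNA (-0.53, limma adjusted p = 0.00273). Their summed level, 69.7 to 74.1 CPM with LOC550643 siRNA and 72.6 to 81.4 CPM with control siRNA, was mostly COL1A1, which did not pass, and THY1 was at 0 in all libraries. Of 6 blood markers 1 was lower, and their summed level was 6.14 to 6.72 CPM with LOC550643 siRNA and 7.73 to 8.78 CPM with control siRNA, with HBB at 0 and PTPRC and CD3E below 0.1 CPM. The part of these markers in the results below was not tested.

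Potassium channel mRNAs that changed were mostly lower with LOC550643 siRNA. Of the 96 genes, 10 were at 0 in all libraries, 21 had reads but fewer than the expression filter requires (filterByExpr of edgeR, minimum 10 read pairs), and 65 were tested. Among the 65, 17 fell, 3 rose and 45 did not pass (limma with adjusted p under 0.05 over all rows tested). The background among all 16245 rows tested was 18.2% lower and 17.5% higher, 35.7% in all, and 30.8% of the 65 genes were called. Called and past a log2 fold change of -1 were 7 of the 65, against a background of 2.09%, and past 1 there were 0, against 0.683%. These backgrounds are not matched for level, since the median was 3.19 CPM for the 65 genes and 29.2 CPM for all rows tested. Their median log2 fold change was -0.21, against -0.02 for all rows tested, and 46 of 65 lay below 0 (background 52.6%). In 29 of the 65 every LOC550643 siRNA library lay below every control siRNA library (background 24.9%), and in 4 every one lay above. These 33 genes stand against a background of 48.5% of all rows tested in either direction. The backgrounds of direction are not matched for level either. Of all 2236 rows with a mean of 1 to 5 CPM, 1472 lay below 0, 455 were lower and 112 higher. All 20 genes called are among the 33, which is no separate evidence, because the calls and the separation rest on the same values. When values were left at their library totals, without TMM factors, 23 genes fell and 2 rose, while over all rows 3976 fell and 2081 rose; with TMM scaling 2956 fell and 2837 rose. Every fold change below divides LOC550643 siRNA by control siRNA and is on the scale of log2(value + pseudocount), which understates those of low genes.

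**Figure D1:**
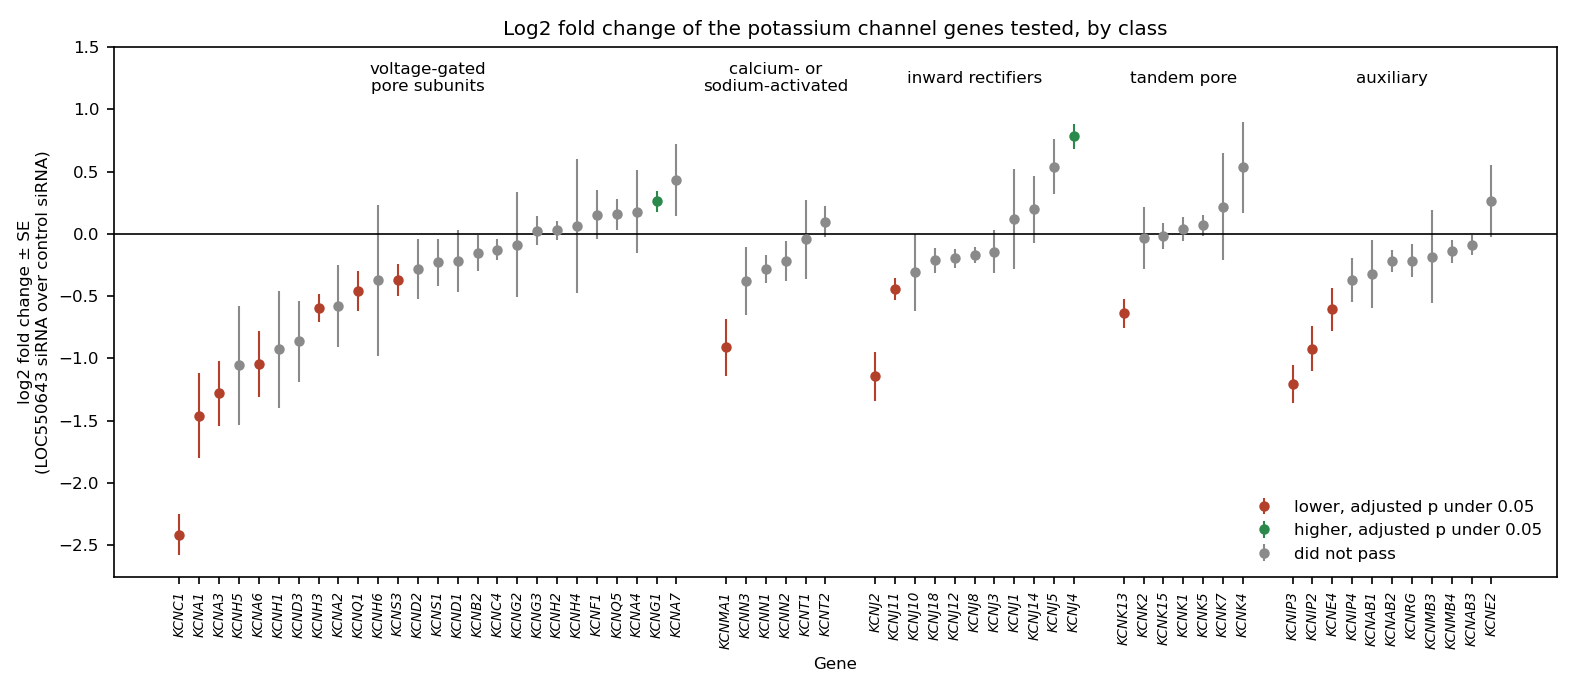
Log2 fold change (LOC550643 siRNA over control siRNA) with its standard error for 61 of the 65 potassium channel genes tested, grouped by class and ordered within each class. Red points (14 genes) were lower and green points (2 genes) higher at an adjusted p under 0.05; KCNC1 lies lowest at -2.41 and KCNJ4 highest at 0.78.

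By class, 10 of the 30 voltage-gated pore and silent subunits tested fell and 2 rose, with a median log2 fold change of -0.29. Among the 6 calcium- or sodium-activated pores 1 fell (median -0.25), among the 11 inward rectifiers 2 fell and 1 rose (median -0.17), and among the 7 tandem pore genes 1 fell (median 0.04). Of the 11 auxiliary genes 3 fell and 0 rose (median -0.22). The background was 35.7% of all rows tested, with 18.2% lower and 17.5% higher. Called in either direction were 12 of the 30 voltage-gated genes, a share near that background and only slightly above it. In each other class the share lay below the background, from 14.3% (tandem pore genes) to 27.3% (inward rectifiers and auxiliary genes). Those classes hold only 6 to 11 tested genes each, so 1 gene moves their shares widely. No class was tested against the background. The summed level of all 96 genes was 555.7, 572.5 and 533.6 CPM with LOC550643 siRNA and 617.1, 636.5 and 601.2 CPM with control siRNA, so the groups did not overlap in the sum. For the tandem pore genes the sums were 57.3, 64.0 and 62.8 CPM with LOC550643 siRNA and 63.4, 62.4 and 61.4 CPM with control siRNA, and they overlapped.

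**Figure D2:**
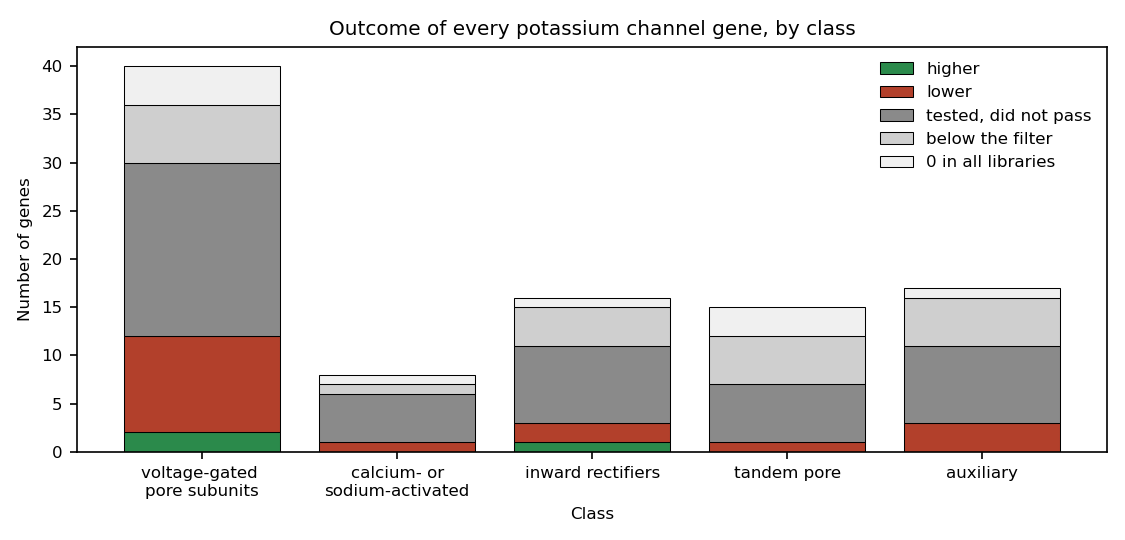
Number of potassium channel genes in each class (bars) by outcome, with higher and lower meaning an adjusted p under 0.05 for LOC550643 siRNA against control siRNA. The voltage-gated class holds 40 genes, of which 10 were lower and 2 higher, and 10 of all 96 genes were at 0 in every library.

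Calls were spread unevenly over expression levels. Of 17 genes tested with a mean under 1 CPM, 1 was called (5.88%), against 184 of 1528 rows at that level. Between 1 and 5 CPM, 7 of 20 fell and 0 rose (against 25.4% of all rows), and between 5 and 20 CPM 7 of 17 fell and 2 rose (52.9%, against 36.9%). At 20 CPM or more 2 of 11 fell and 1 rose (27.3%, against 41.5%). Below 20 CPM, falls outnumbered rises over all rows too. Under 1 CPM 132 of 1528 rows were lower and 52 higher. From 1 to 5 CPM 455 of 2236 were lower and 112 higher, and from 5 to 20 CPM 771 of 3035 and 349. At 20 CPM or more 1598 of 9446 rows were lower and 2324 higher. Lower and past a log2 fold change of -1 were 1 of 17 potassium channel genes under 1 CPM, against 100 of 1528 rows at that level. Between 1 and 5 CPM they were 4 of 20, against 121 of 2236 rows, and between 5 and 20 CPM 2 of 17, against 68 of 3035. At 20 CPM or more they were 0 of 11, against 50 of 9446. For the potassium channel genes the median log2 fold change was -0.28 between 1 and 5 CPM, -0.22 between 5 and 20 CPM and -0.14 at 20 CPM or more, against -0.17, -0.10 and 0.04 for all rows at those levels.

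**Figure D3:**
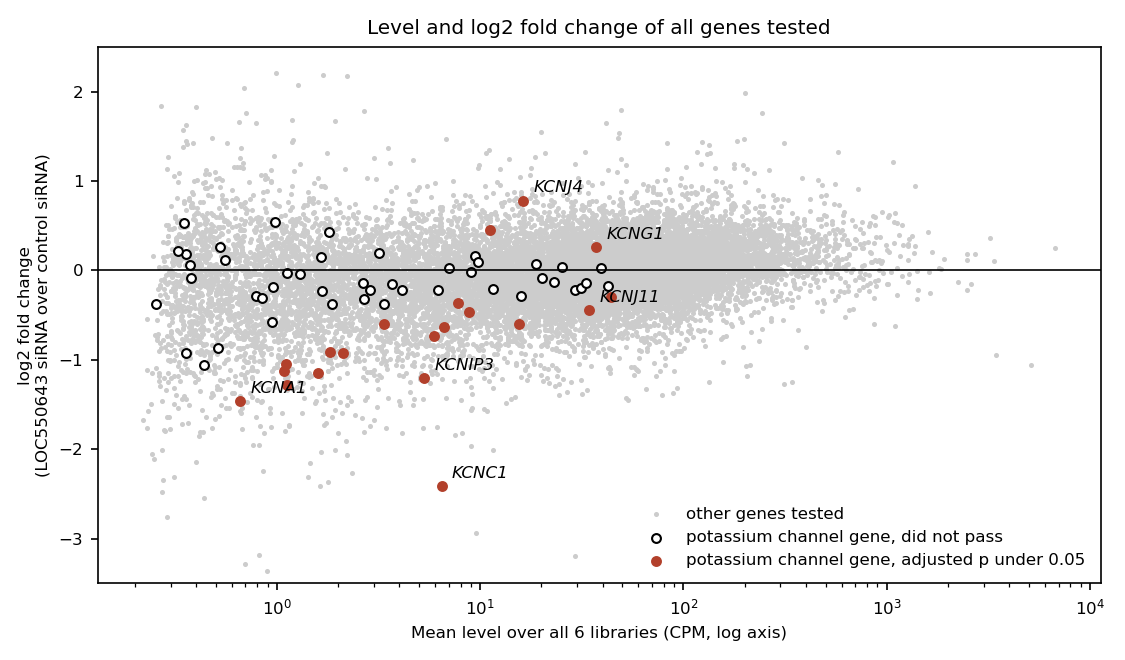
Mean level over all 6 libraries (CPM, log axis) against log2 fold change (LOC550643 siRNA over control siRNA) for all rows tested (grey), with potassium channel genes that passed (filled) and did not pass (open). Potassium channel genes with a mean of 20 CPM or more lie between -0.44 and 0.26, and KCNC1 lies apart from the other potassium channel genes at -2.41.

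For 2 of the genes called, the 250 bases before the listed transcript start are shown, because the fall or rise of their mRNA is described below and the window overlaps no annotated exon on its strand; they are the largest rise (KCNJ4) and the deepest fall (KCNA6) that meet this condition. Sequences are from GRCh37, the build of the deposited table (hg19), 5′ to 3′ on the gene's strand, and capitals mark the GC box GGGCGG or its reverse complement CCGCCC. The windows are chr22:38851206-38851455 (KCNJ4, minus strand) and chr12:4918092-4918341 (KCNA6, plus strand).
KCNJ4: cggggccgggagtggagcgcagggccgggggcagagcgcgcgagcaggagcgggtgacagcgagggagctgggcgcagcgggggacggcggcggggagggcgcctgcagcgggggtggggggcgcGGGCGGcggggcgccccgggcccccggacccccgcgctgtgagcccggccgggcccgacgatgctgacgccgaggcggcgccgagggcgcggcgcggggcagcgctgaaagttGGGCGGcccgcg
KCNA6: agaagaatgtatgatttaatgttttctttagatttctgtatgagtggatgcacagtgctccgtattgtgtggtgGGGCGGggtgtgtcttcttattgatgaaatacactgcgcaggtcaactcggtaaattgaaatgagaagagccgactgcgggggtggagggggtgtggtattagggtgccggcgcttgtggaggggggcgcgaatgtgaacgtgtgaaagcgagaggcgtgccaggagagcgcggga
The GC content of these windows was 84.4% for KCNJ4 and 52.4% for KCNA6. A GC box on either strand occurred upstream of 13 of the 17 genes that fell (76.5%), 3 of the 3 that rose and 28 of the 45 that did not pass (62.2%), against 61.7% of all rows tested. A TATAAA motif on either strand occurred upstream of 0 of the 20 genes called and 5 of the 45 others, against 5.89% of all rows tested. The median GC content was 71.6% for the genes that fell and 78.8% for those that rose, against 64.0% for all rows tested. These matches describe the listed starts and were not tied to the changes.

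The Shaw-type subunits, which in neurons allow very fast repolarisation and high firing rates, held the deepest fall. KCNC1 (NM_004976, chromosome 11, 17757495 to 17799377, plus strand, hg19) stood at 2.49, 1.80 and 1.78 CPM with LOC550643 siRNA, against 10.8, 12.6 and 9.31 CPM with control siRNA. The groups were far apart (log2 fold change -2.41, SE 0.17, limma adjusted p = 3.93e-06), and that log2 fold change is a level 5.32-fold lower with LOC550643 siRNA. KCNC4 stood at 22.0, 22.0 and 22.1 CPM with LOC550643 siRNA, against 22.5, 25.9 and 23.9 CPM with control siRNA; the groups did not overlap, but the gene did not pass (log2 fold change -0.13, limma adjusted p = 0.253). KCNC2 was at 0 in all 6 libraries. Per kilobase of the listed transcript, KCNC1 averaged 0.299 CPM per kilobase with LOC550643 siRNA and 1.60 with control siRNA, and KCNC4 averaged 4.97 with LOC550643 siRNA and 5.44 with control siRNA, so per length KCNC4 was more abundant than KCNC1 in both groups.

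Shaker-type subunits (KCNA), which shape the firing threshold of neurons and in lymphocytes hold the membrane voltage, were scarce and 3 of the 6 tested fell. KCNA3, the lymphocyte channel, stood at 0.522, 0.572 and 0.832 CPM with LOC550643 siRNA, against 1.52, 1.99 and 1.28 CPM with control siRNA (log2 fold change -1.28, SE 0.26, limma adjusted p = 0.00305). The transcript listed for KCNA3 is a noncoding one (NR_109845, 6360 bases). How many of its reads come from mRNA that encodes the channel was not measured. KCNA6 stood at 0.782, 0.943 and 0.476 CPM with LOC550643 siRNA, against 1.45, 1.495 and 1.53 CPM with control siRNA (log2 fold change -1.04, limma adjusted p = 0.0102). KCNA1 passed at a mean below 1 CPM, with 0.261, 0.269 and 0.476 CPM with LOC550643 siRNA and 1.15, 1.16 and 0.636 CPM with control siRNA (log2 fold change -1.46, limma adjusted p = 0.00686). In all 3 genes the groups did not overlap, yet LOC550643 siRNA replicate 3 rests on only 8 read ends for KCNA1, 14 for KCNA3 and 8 for KCNA6. With all libraries thinned to the shallowest, KCNA1 and KCNA3 fell below the filter. KCNA2, KCNA4 and KCNA7 were tested and did not pass, and KCNA5 and KCNA10 were at 0 throughout.

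KCNB2, a delayed rectifier pore, had 3.45, 3.72 and 3.27 CPM with LOC550643 siRNA and 3.47, 4.38 and 3.82 CPM with control siRNA, where the groups overlapped (limma adjusted p = 0.429). Of the silent subunits that join KCNB pores, KCNS3 fell and KCNG1 rose. KCNS3 stood at 6.14, 7.95 and 6.24 CPM with LOC550643 siRNA, against 8.92, 9.14 and 8.05 CPM with control siRNA (log2 fold change -0.37, limma adjusted p = 0.0428), and KCNG1 at 41.5, 43.5 and 36.4 CPM with LOC550643 siRNA, against 35.3, 32.9 and 32.8 CPM with control siRNA (0.26, limma adjusted p = 0.0316). Both calls were close to the threshold. KCNS3 was lost without LOC550643 siRNA replicate 1 or 3 (limma adjusted p = 0.128 and 0.115) or control siRNA replicate 1, 2 or 3 (0.114, 0.0791 and 0.0524), and with edgeR, DESeq2 and voom (0.054, 0.0935 and 0.0535) and without a filter (0.0712). KCNG1 was lost without LOC550643 siRNA replicate 1 or 2 (0.0877 and 0.127), without control siRNA replicate 2 or 3 (0.0638 and 0.0905), with upper-quartile scaling (0.0543) and with library totals alone (0.0977). KCNF1, KCNG2, KCNG3 and KCNS1 did not pass.

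In the KCNQ subfamily, which carries the subthreshold M current of neurons and a repolarising current of heart, KCNQ1 fell. KCNQ1, the heart and epithelial member, stood at 8.98, 7.66 and 5.65 CPM with LOC550643 siRNA, against 9.86, 9.17 and 11.2 CPM with control siRNA (log2 fold change -0.46, limma adjusted p = 0.0428). KCNQ5 stood at 10.4, 8.35 and 11.2 CPM with LOC550643 siRNA and 8.46, 8.88 and 9.34 CPM with control siRNA, and the groups overlapped (limma adjusted p = 0.348). KCNQ3 stayed below the filter. The call of KCNQ1 was lost without LOC550643 siRNA replicate 2 or 3 (limma adjusted p = 0.0791 and 0.134), without control siRNA replicate 1 or 3 (0.0914 and 0.14), with edgeR, DESeq2 and voom (0.058, 0.06 and 0.0693) and without a filter (0.0682). Over all GENCODE transcripts, KCNQ1 shares 121 exon bases with the antisense KCNQ1OT1, which stood at 6.09, 3.10 and 4.16 CPM with LOC550643 siRNA and 5.48, 14.2 and 2.91 CPM with control siRNA and did not pass; the counting command shows no strand option, so reads of any shared bases in the counted transcripts cannot be told apart.

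Among the ether-a-go-go relatives (KCNH), KCNH3 fell and the others tested did not pass. KCNH3, a channel of forebrain neurons, stood at 13.3, 13.4 and 10.7 CPM with LOC550643 siRNA, against 17.6, 20.6 and 18.04 CPM with control siRNA (log2 fold change -0.59, SE 0.11, limma adjusted p = 0.00185). KCNH2, the hERG channel that repolarises heart muscle, stood at 39.5, 42.0 and 37.3 CPM with LOC550643 siRNA and 39.8, 38.9 and 37.8 CPM with control siRNA (log2 fold change 0.03, limma adjusted p = 0.8). Its groups overlapped, and the sign of its fold change turned with upper-quartile scaling and with library totals alone. The A-type pores KCND1, KCND2 and KCND3 were tested and did not pass, with log2 fold changes from -0.86 to -0.22. KCND3 passed with library totals alone and without LOC550643 siRNA replicate 1 (limma adjusted p = 0.0397), and KCND1 without control siRNA replicate 3 (0.0317).

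**Figure D4:**
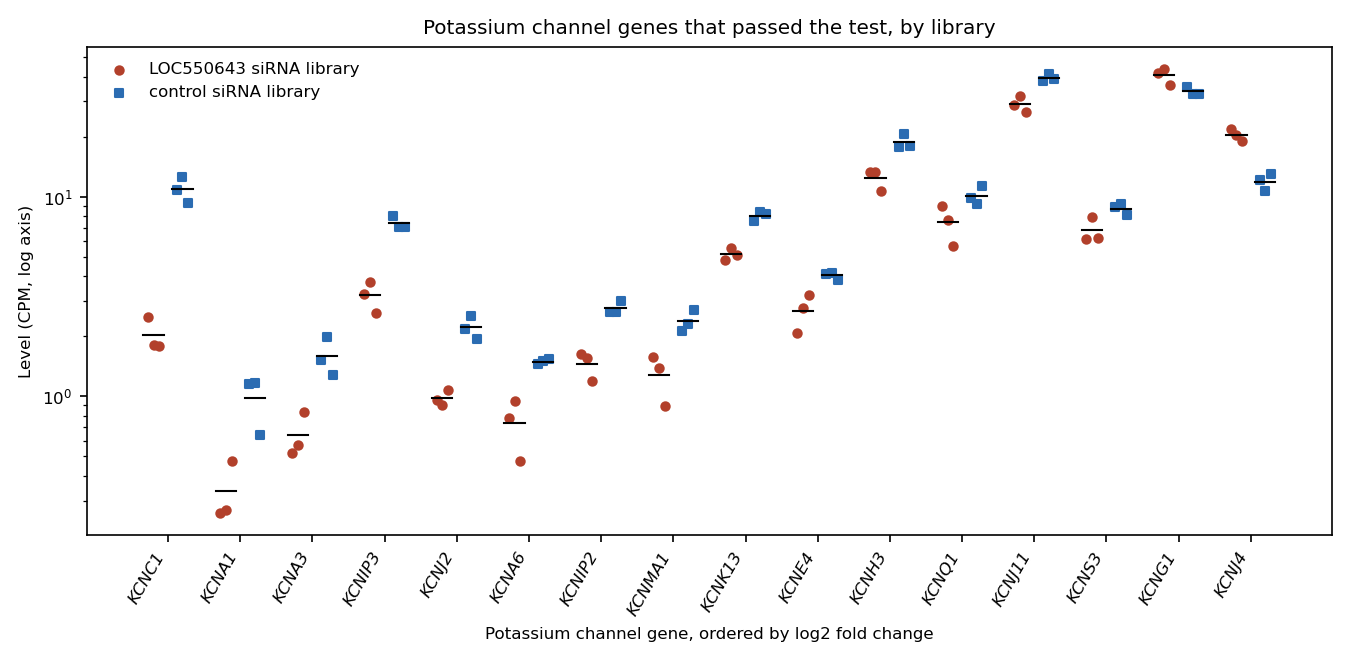
Level (CPM, log axis) of 16 of the 20 potassium channel genes that passed the test, ordered by log2 fold change; points are single libraries, LOC550643 siRNA to the left (circles) and control siRNA to the right (squares), and bars are group means. In all 16 genes the groups do not overlap; KCNC1 averages 2.03 and 10.9 CPM and KCNJ4 20.5 and 11.9 CPM with LOC550643 and control siRNA.

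Inward rectifiers split between a fall and a rise in closely related pores. KCNJ4, a strong rectifier of brain and heart (chromosome 22, 38822333 to 38851205, minus strand, hg19), stood at 21.9, 20.4 and 19.1 CPM with LOC550643 siRNA, against 12.1, 10.7 and 12.9 CPM with control siRNA. Its groups were well apart (log2 fold change 0.78, SE 0.10, limma adjusted p = 0.000182), the largest rise among the 65 genes tested. KCNJ2, the classical strong rectifier that sets the resting voltage of muscle, stood at 0.956, 0.909 and 1.07 CPM with LOC550643 siRNA, against 2.17, 2.53 and 1.94 CPM with control siRNA (log2 fold change -1.14, SE 0.20, limma adjusted p = 0.00102). Per kilobase of transcript, KCNJ4 averaged 9.93 CPM per kilobase with LOC550643 siRNA and 5.77 with control siRNA, and KCNJ2 averaged 0.182 with LOC550643 siRNA and 0.411 with control siRNA. KCNJ12, of the same subfamily, and KCNJ18, a gene of near-identical sequence, did not pass (log2 fold change -0.20 and -0.21, limma adjusted p = 0.0692 and 0.126). The table places KCNJ18 (chromosome 17, 21308448 to 21320482, hg19) inside KCNJ12 (21279699 to 21323179) on the same strand, so the rows may count the same reads and are not separate evidence, and the sums and counts above hold this place as 2 genes. The call of KCNJ12 was gained with upper-quartile scaling (0.04) and with library totals alone (0.0157), and that of KCNJ18 with library totals alone (0.0422).

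KCNJ11 and KCNJ8 are the pores of channels that ATP closes, which couple metabolism to membrane voltage. KCNJ11, the pore of pancreatic beta cells, stood at 28.7, 31.8 and 26.5 CPM with LOC550643 siRNA, against 37.8, 41.2 and 38.9 CPM with control siRNA (log2 fold change -0.44, SE 0.09, limma adjusted p = 0.00216). ABCC8, the sulfonylurea receptor that forms the channel with it, stood at 18.6, 13.1 and 12.6 CPM with LOC550643 siRNA, against 22.8, 22.9 and 21.9 CPM with control siRNA (log2 fold change -0.63, limma adjusted p = 0.0036). In both genes every LOC550643 siRNA library lay below every control siRNA library. KCNJ8, the pore of vascular smooth muscle, stood at 40.4, 39.9 and 39.7 CPM with LOC550643 siRNA, against 45.3, 43.7 and 45.9 CPM with control siRNA, and ABCC9, its receptor, averaged 0.571 CPM with LOC550643 siRNA and 0.931 CPM with control siRNA. Neither passed (log2 fold change -0.17 and -0.70, limma adjusted p = 0.073 and 0.0621), though the groups did not overlap in either; KCNJ8 passed with upper-quartile scaling (0.0441) and library totals alone (0.0134).

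The large-conductance channel KCNMA1, opened by voltage and calcium together, fell along with one of its subunits. KCNMA1 stood at 1.56, 1.38 and 0.892 CPM with LOC550643 siRNA, against 2.13, 2.29 and 2.72 CPM with control siRNA (log2 fold change -0.91, SE 0.23, limma adjusted p = 0.00972). Its call was lost on thinned libraries (log2 fold change -0.46, limma adjusted p = 0.273). LRRC26, a gamma subunit that lets the channel open at less positive voltage, stood at 1.65, 1.89 and 1.78 CPM with LOC550643 siRNA, against 5.42, 4.08 and 4.09 CPM with control siRNA (log2 fold change -1.33, limma adjusted p = 0.00015). The beta subunit KCNMB4, abundant in brain, stood at 30.5, 35.7 and 28.9 CPM with LOC550643 siRNA and 35.5, 33.3 and 35.7 CPM with control siRNA, where the groups overlapped (limma adjusted p = 0.247). Of the small-conductance channels, KCNN1 stood at 16.2, 14.9 and 12.1 CPM with LOC550643 siRNA, against 18.1, 17.0 and 17.1 CPM with control siRNA, and did not pass (log2 fold change -0.28, limma adjusted p = 0.07); it passed without LOC550643 siRNA replicate 1 (0.0343) and with library totals alone (0.028). KCNN3 averaged 2.97 and 3.73 CPM and the sodium-activated KCNT2 10.1 and 9.41 CPM with LOC550643 and control siRNA, with overlapping groups in both.

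Of the tandem pore genes, KCNK13, a leak channel known from microglia, fell. It stood at 4.84, 5.52 and 5.11 CPM with LOC550643 siRNA, against 7.53, 8.39 and 8.19 CPM with control siRNA (log2 fold change -0.64, SE 0.11, limma adjusted p = 0.00142). The most abundant members did not pass. KCNK1 stood at 22.8, 28.1 and 26.3 CPM with LOC550643 siRNA and 26.1, 24.7 and 24.0 CPM with control siRNA (limma adjusted p = 0.769), and KCNK5, an acid-sensitive channel of kidney tubules, averaged 19.2 ± 0.712 CPM with LOC550643 siRNA and 18.3 ± 0.747 CPM with control siRNA (SD, n = 3 each; limma adjusted p = 0.543). KCNK15, whose protein passes little current alone, averaged 8.89 ± 0.377 CPM with LOC550643 siRNA and 9.02 ± 0.725 CPM with control siRNA (limma adjusted p = 0.906). Signs of the small fold changes of KCNK1 and KCNK5 turned with library totals alone.

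Auxiliary genes moved downward or did not pass. KCNIP3, a calcium-binding protein that attaches to KCND pores and also acts as a repressor of transcription (chromosome 2, 96012768 to 96051825, plus strand, hg19), stood at 3.25, 3.75 and 2.62 CPM with LOC550643 siRNA, against 8.03, 7.01 and 7.05 CPM with control siRNA (log2 fold change -1.20, SE 0.15, limma adjusted p = 0.000158). KCNIP2, which the transient outward current of heart depends on, stood at 1.62, 1.55 and 1.19 CPM with LOC550643 siRNA, against 2.64, 2.66 and 2.99 CPM with control siRNA (log2 fold change -0.92, limma adjusted p = 0.00254). Over all GENCODE transcripts it shares 444 exon bases with KCNIP2-AS1 on the opposite strand, which also fell (log2 fold change -0.81, limma adjusted p = 0.0179), and reads of any shared bases in the counted transcripts cannot be told apart. KCNE4, an inhibitory partner of KCNQ1, stood at 2.09, 2.76 and 3.21 CPM with LOC550643 siRNA, against 4.11, 4.17 and 3.84 CPM with control siRNA (log2 fold change -0.60, limma adjusted p = 0.0181). The call of KCNE4 was lost without LOC550643 siRNA replicate 1 (0.0594), without control siRNA replicate 1 (0.0616) and on thinned libraries (0.161). The beta subunits of KCNA pores did not pass, although neither KCNAB2 nor KCNAB3 overlapped between the groups. KCNAB2 stood at 28.9, 28.1 and 24.2 CPM with LOC550643 siRNA, against 32.6, 30.0 and 31.4 CPM with control siRNA (limma adjusted p = 0.0776), and KCNAB3 averaged 19.5 CPM with LOC550643 siRNA and 20.7 CPM with control siRNA (0.414). With library totals alone KCNAB2 passed (0.0224).

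Other tested genes that did not pass are KCNAB1, KCNE2, KCNIP4, KCNMB3, KCNRG, KCNN2, KCNT1, KCNJ1, KCNJ3, KCNJ5, KCNJ10, KCNJ14, KCNK2, KCNK4, KCNK7, KCNH1, KCNH4, KCNH5 and KCNH6, with log2 fold changes from -1.06 for KCNH5 (mean 0.438 CPM, limma adjusted p = 0.105) to 0.54 for KCNJ5 (mean 0.976 CPM, limma adjusted p = 0.0796). Leaving out 1 library brought KCNH1 (0.0305, without LOC550643 siRNA replicate 1) and KCNH5 (0.0487, without LOC550643 siRNA replicate 2) past the threshold. The transcript listed for KCNMB3 is a noncoding one (NR_028135). In GENCODE, over all transcripts of both genes, exons of KCNMB3, KCNIP4, KCNK15, KCNMA1 and KCNAB2 overlap exons of PIK3CA, PACRGL, RIMS4, KCNMA1-AS1 (at 0 in all libraries) and NPHP4 on the opposite strand, and exons of KCNRG overlap those of TRIM13 on its own strand; how much of the counted transcripts is shared was not measured.

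The genes at 0 in all libraries were KCNA5, KCNA10, KCNC2, KCNG4, KCNJ6, KCNK6, KCNK16, KCNK17, KCNMB1 and KCNU1. Those with reads that were not tested were KCNE1, KCNE3, KCNE5, KCNH7, KCNH8, KCNIP1, KCNJ9, KCNJ13, KCNJ15, KCNJ16, KCNK3, KCNK9, KCNK10, KCNK12, KCNK18, KCNMB2, KCNN4, KCNQ3, KCNS2, KCNV1 and KCNV2. In these 21 genes, mean levels ran from 0.00242 CPM for KCNK18 to 0.238 CPM for KCNV1. A count of 0 allows up to 3 read pairs, which is 0.349 CPM in LOC550643 siRNA replicate 3 and 0.0831 to 0.0976 CPM in the other libraries, for counting error only, so small differences among these genes were not detectable at this depth. Tested without the filter, 3 of them passed, KCNE3 and KCNH8 lower and KCNJ9 higher with LOC550643 siRNA. For 2 of them the authors' deposited table gives an adjusted p under 0.05, KCNH8 with 0.044 and KCNE3 with 0.0233, both lower with LOC550643 siRNA. For the called genes, the authors' deposited table gives KCNC1 a log2 fold change of -2.37, KCNIP3 -1.14 and KCNJ4 0.79; it gives KCNG1 and KCNS3 adjusted p-values of 0.0546 and 0.0676.

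Channel subunits that do not carry a KCN symbol were also taken as a list, of which 7 of 12 were tested, 3 fell and 2 rose. Besides ABCC8 and LRRC26, AMIGO1, an auxiliary subunit of delayed rectifier pores, stood at 6.81, 7.63 and 6.18 CPM with LOC550643 siRNA, against 12.4, 12.6 and 13.1 CPM with control siRNA (log2 fold change -0.88, limma adjusted p = 0.00014). CALM3, which rose, encodes calmodulin, the calcium sensor of KCNN and KCNQ channels and of many other proteins. It averaged 822.6 CPM with LOC550643 siRNA and 580.4 CPM with control siRNA (log2 fold change 0.50, limma adjusted p = 0.000361). CALM2 did not pass (0.01, limma adjusted p = 0.946). The medians and counts of this list and those below stand beside the background of 18.2% lower and 17.5% higher. Called in either direction were 71.4% of the 7 genes tested in this list, against 35.7% of all rows tested.

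**Figure D5:**
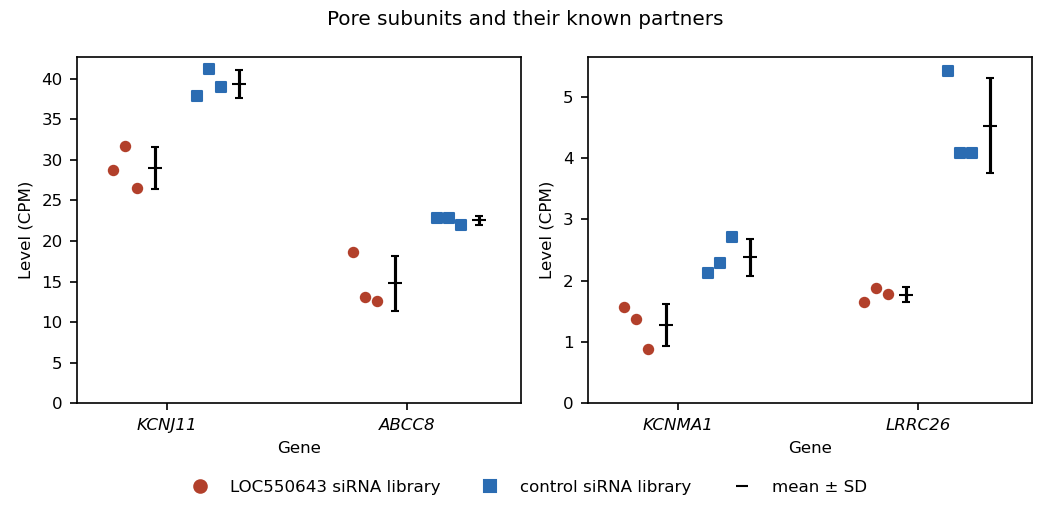
Level (CPM) of 2 pore subunits and a known partner of each, with points for single libraries, LOC550643 siRNA (circles, left) and control siRNA (squares, right), and the mean ± SD beside them. KCNJ11 and ABCC8, and KCNMA1 and LRRC26, each lie lower in all 3 LOC550643 siRNA libraries than in any control siRNA library.

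Among 16 proteins that anchor or regulate potassium channels at the membrane, all tested, 5 fell and 1 rose (median log2 fold change -0.15). That is 37.5% called in either direction, near the 35.7% of all rows tested. AKAP5, which anchors kinases at KCNQ channels, fell by 1.05 on the log2 scale (limma adjusted p = 0.000135). CNTNAP1 and CNTNAP2, which organise KCNA channels along axons, fell by 0.84 and 0.50 (limma adjusted p = 0.000239 and 0.000817). CNTNAP2 stood at 36.7, 33.0 and 35.9 CPM with LOC550643 siRNA, against 45.9, 49.9 and 54.0 CPM with control siRNA. LIN7C and LIN7B, adaptors of the CASK complex, fell by 0.33 and 0.39 (limma adjusted p = 0.0112 and 0.0401), and CASK itself rose by 0.26 (0.0128). The call of LIN7B was lost without LOC550643 siRNA replicate 2 or 3 (0.0736 and 0.114) and without control siRNA replicate 1, 2 or 3 (0.107, 0.0543 and 0.088), and that of CASK without control siRNA replicate 1 (0.0507) and with library totals alone (0.0513). LIN7B was also lost with edgeR, DESeq2 and voom (0.0565, 0.117 and 0.0628).

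Potassium is brought into cells by the sodium pump and by chloride cotransporters. Of 16 such genes and their kinases 13 were tested, 3 fell and 2 rose (median log2 fold change -0.10). That is 38.5% called in either direction, near the 35.7% of all rows tested. ATP1B2, a pump subunit of glia and neurons, stood at 42.4, 43.2 and 43.6 CPM with LOC550643 siRNA, against 80.3, 82.1 and 79.4 CPM with control siRNA (log2 fold change -0.90, SE 0.06, limma adjusted p = 4.54e-06). Its relative ATP1B3 rose, with 203.3, 226.8 and 226.9 CPM with LOC550643 siRNA, against 176.2, 167.1 and 172.0 CPM with control siRNA (0.35, limma adjusted p = 0.00281). SLC12A2, a sodium, potassium and chloride cotransporter, fell by 0.40 on the log2 scale (limma adjusted p = 0.00369). STK39, a kinase that activates that cotransporter, rose, at 72.3, 74.7 and 73.4 CPM with LOC550643 siRNA and 40.5, 41.0 and 48.7 CPM with control siRNA (0.76, limma adjusted p = 5.6e-05).

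Of 10 other potassium-permeable channels 7 were tested, and 1 fell and 1 rose (28.6% called, against 35.7% of all rows tested), both of the HCN pacemaker family. HCN3 stood at 21.5, 21.1 and 18.9 CPM with LOC550643 siRNA, against 29.7, 33.2 and 27.9 CPM with control siRNA (log2 fold change -0.56, SE 0.09, limma adjusted p = 0.000805). HCN2 stood at 84.3, 84.8 and 77.7 CPM with LOC550643 siRNA, against 70.01, 66.5 and 67.9 CPM with control siRNA (0.27, limma adjusted p = 0.00962). The groups did not overlap in either gene. TMEM175, a lysosomal potassium channel, averaged 36.7 and 36.6 CPM with LOC550643 and control siRNA and did not pass.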

How the data were processed

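The deposited table gives 1 value per gene and library. Poly-A RNA was made into dUTP libraries and read from both ends, 75 bases each, per the labels' protocols, which name CASAVA 1.8.2 for demultiplexing and STAR 2.4.0k for alignment to hg19. HOMER counted exonic reads with no strand option and 1 transcript per gene, per the file headers. The deposited per-library values are a signal that the authors scaled to a shared total. All were whole multiples of 1 step per library (100% within 0.1 step); 1 step was taken as 1 read end and 2 as 1 read pair, an inference from the values. The authors' deposited log2 fold changes and deposited p-values, from edgeR 3.6.8 per the labels' protocols, are printed only where named.

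TMM factors came from read pairs. The main test was limma 3.58.1 (trend by mean level; two-sided) on log2 of the scaled deposited value plus 1 deposited unit (0.034 CPM), with Benjamini-Hochberg adjustment over the 16245 rows that passed the filter of edgeR 4.0.16. CPM is the deposited value over the TMM-scaled library total. edgeR, DESeq2 1.42.0 and voom ran on recovered read pairs as alternatives; edgeR called 2892 rows higher and 3020 lower. R 4.3.3 and Python 3.11.15 were used, and the fits were tested on simulated data. Values by library are given for genes with an adjusted p under 0.05 and a mean of at least 1 CPM, and for up to 3 of the most abundant other genes per class; KCNA1, KCNB2 and any other gene named were added after their values were seen. The members, lists and alternatives were chosen with earlier results of these data known. The labels do not say whether the 3 replicates were separate cultures, so the spread behind each p-value may be technical. Chi-square per degree of freedom between replicates was 5.22 to 39.2, above sampling noise in each pair. Exon overlaps come from GENCODE release 44 lifted to GRCh37. Some genes and sequences are counted in the totals but not reported here one by one.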

Additional observations from a re-analysis of the deposited data

How the results depend on the processing

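Over 18 alternatives the number of potassium channel genes that fell stayed between 13 and 23, with 17 in the reported test. With each library left out in turn, 14 to 18 fell and 1 to 3 rose, and over all rows 2237 to 2882 fell and 2048 to 2623 rose; the log2 fold change of the LINC01420 (LOC550643) level lay between -3.24 and -3.15. At an adjusted p of 0.01 the genes called over all rows were 1770 higher and 1751 lower, 13 potassium channel genes fell and 1 rose, and 3 of the membrane partners were called. The calls of KCNC1, KCNH3, KCNJ2, KCNJ4, KCNJ11, KCNK13, KCNIP2 and KCNIP3 held in all alternatives; those of KCNA1 and KCNA3 held wherever the genes passed the filter. Signs that turned were all of genes that did not pass, and the cause was not tested. KCNH2 had a log2 fold change of -0.0012 with upper-quartile scaling, -0.048 with library totals alone and -0.019 on thinned libraries, KCNK1 of -0.036 and KCNK5 of -0.0055 with library totals alone, and KCNQ5 of -0.0061 on thinned libraries. With each library left out, the range was -0.016 to 0.070 for KCNH2, -0.026 to 0.124 for KCNK1 and -0.076 to 0.044 for KCNK15, lowest without LOC550643 siRNA replicate 2 for KCNH2 and KCNK1 and highest without control siRNA replicate 3 for KCNK15. Same-numbered libraries did not deviate together (correlations 0.06, -0.28 and -0.12). These 3 values cannot decide whether same-numbered libraries were handled together, and the labels do not say. With the replicate number as a block 16 potassium channel genes fell and 3 rose, against 17 and 3, and over all rows 2718 fell and 2671 rose. In that limma fit the adjusted p of KCNQ1 was 0.0695 and of LIN7B 0.0542. Depth limits the genes under 1 CPM most, since LOC550643 siRNA replicate 3 holds 8604236 read pairs.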
